A study of Ovis aries with 36 samples.

Results

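The pineal glands of 12 adult rams were compared by RNA sequencing, 6 from rams labelled sexually active and 6 from rams labelled not active, which are called inactive here. The members were the 12 pineal libraries among the 36 libraries of the series, chosen by the tissue in their labels, with 1 library per ram. All rams were of the breed Rasa Aragonesa, a Spanish sheep, and active rams carry the numbers 1 to 6 and inactive rams 7 to 12. The other 24 libraries came from the hypothalamus and the pars tuberalis of the same rams. The labels give no genotype or treatment, and the sources used here do not give the hour or season of sampling or the behaviour test behind the 2 states. The groups are therefore compared as labelled, and whether the rams were manipulated is not known here.

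The pineal gland is a small neuroendocrine organ whose pinealocytes turn serotonin into melatonin at night. Noradrenaline released by sympathetic nerves at night drives that synthesis, so the length of the nightly melatonin signal follows the length of the night. Sheep breed by season and use this signal to time reproduction, with the pars tuberalis and the hypothalamus downstream of it. The comparison asks which pineal transcripts differ between rams labelled sexually active and rams labelled not active.

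Genes stand here as Ensembl sheep IDs. The counts do not pair IDs with names, and 0 of the 26478 IDs matched an entry of the reference gene table used here, so melatonin synthesis, clock and cell type genes could not be picked out by name. In place of cell type markers, genes restricted to 1 tissue of the series were used to compare the libraries with each other. Such a gene has a median of at least 20 counts per 1000000 counts (CPM) in its own tissue, and that median is 50 or more times as high as in either other tissue.

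Whether the libraries matched their label could not be checked with genes of known name. Depth ran from 25.24 to 72.95 in units of 1000000 counts, with 18210 to 19280 IDs detected per library. A count was present in each pineal library for 16485 IDs and in at least 1 of them for 21613. The gland's RNA was spread over many transcripts: the 10 most abundant IDs of a library held 3.57% to 4.84% of its counts, and the 100 most abundant held 15.3% to 18.3%. Of the 15786 genes tested, 2353 averaged at least 100 CPM and 76 at least 1000 CPM.

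All 69 pineal-restricted genes were present in all 12 libraries. As a percent of their tissue median, they stood at 89.5 to 115 in active rams (median 97) and 84.5 to 114 in inactive rams (median 96.1). Their summed level lay between 33800 and 48100 CPM. Both states covered the same span, and no pineal library was short of these transcripts relative to the others. The genes were chosen by their median over the same 12 libraries, and the percent is taken of that median. A level near the median was therefore largely set by the choice, and the values only compare the 12 libraries with each other. In a piece of tissue, fewer cells of a type and less RNA per cell cannot be told apart.

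The 35 hypothalamus-restricted genes stood at 0.422% to 1.54% of their hypothalamic level in active rams (median 0.974%) and at 0.344% to 0.737% in 5 of the inactive rams. In inactive ram 10 they stood at 8.73%, and their summed level was 2690 CPM there against 143 to 534 CPM in the other 11 pineal libraries. The hypothalamus itself held 14600 to 79000 CPM of these genes. The 43 pars tuberalis-restricted genes stood at 0.104% to 0.278% in all 12 libraries, with summed levels of 14.9 to 66.6 CPM. Ram 10 thus stood apart for hypothalamic genes and lay within the range of the others for pineal and pars tuberalis genes. Counts by direction are given below with and without it.

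**Figure D1:**
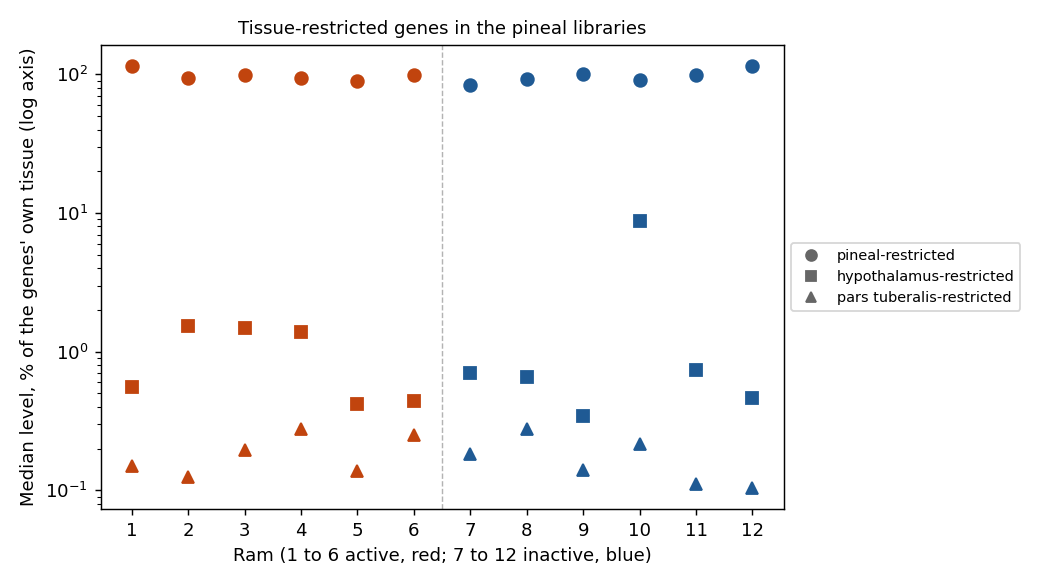
Level of the genes restricted to the pineal gland, hypothalamus and pars tuberalis in each pineal library, as the median percent of the level in their own tissue (log axis), by ram. Pineal genes lie near 100% in all 12 rams, and the hypothalamic genes of ram 10 lie at 8.73%, above the 0.344% to 1.54% of the other rams.

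The libraries did not separate by state. Between active rams the correlation of log2 CPM over genes had a median of 0.967 (15 pairs), between inactive rams 0.966 (15 pairs) and between rams of different state 0.967 (36 pairs). These pairs share libraries and carry no test. In a principal component analysis, component 1 took up 26.9% of the variance, and its scores in active rams ran from -45.6 in ram 4 to 53.6 in ram 6. Inactive rams ran from -45.4 in ram 10 to 38.4 in ram 8. Active rams had a mean score of -0.751 ± 40.0 and inactive rams one of 0.751 ± 29.4 (SD, n = 6 each; exact permutation test, two-sided, p 0.948). On the second component, with 13.7% of the variance, the mean scores were -5.6 ± 18.5 and 5.6 ± 28.9 (SD, n = 6 each, exact permutation p 0.424). Over 10 values per library, covering depth, IDs detected, concentration of counts, components, spread and tissue-restricted genes, the lowest exact permutation p was 0.424 and each adjusted p was 0.948.

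**Figure D2:**
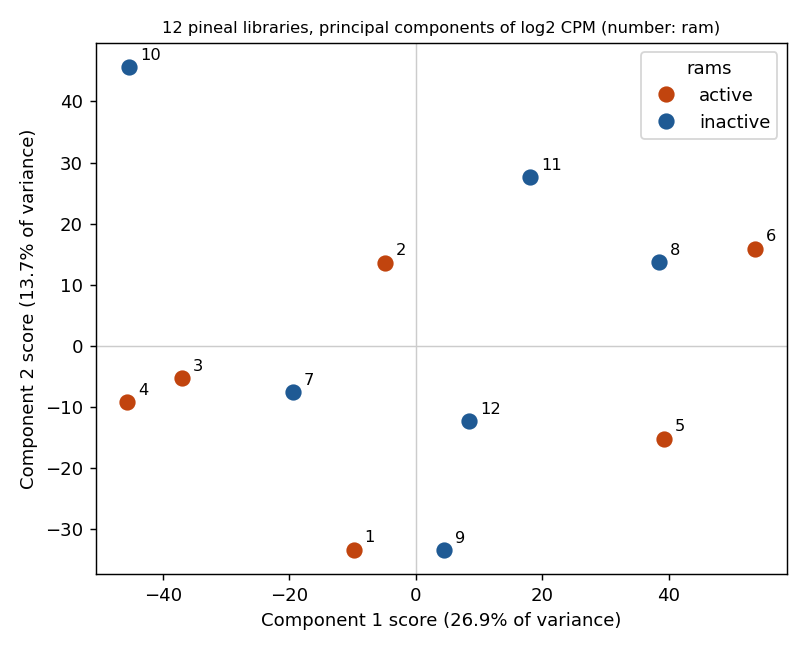
Scores of the 12 pineal libraries on the first 2 principal components of log2 CPM, coloured by state and numbered by ram. Active rams span the first component from -45.6 to 53.6 and inactive rams lie among them, with ram 10 at the top left.

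The first component followed the share of counts in the leading transcripts. The score, whose sign was set to be positive with it, rose with the share of counts held by the 100 most abundant IDs. Over 12 rams Pearson's r was 0.9 (permutation p 0.00013, adjusted p 0.00182) and Spearman's rho 0.909 (permutation p 0.00018, adjusted p 0.00252). Without rams 6 and 8, the rams farthest from the median share, r was 0.83, and it was 0.903 within active and 0.916 within inactive rams (n = 6 each, given as values). Score and share come from the same counts and are not independent. Hypothalamus-restricted genes fell along the same component, with r at -0.695 (permutation p 0.00667, adjusted p 0.0467) and rho at -0.671 (permutation p 0.0202, adjusted p 0.142). That r was -0.717 without rams 10 and 2, and -0.828 and -0.725 within active and inactive rams (n = 6 each). Pineal-restricted genes had an r of 0.0779 with it (permutation p 0.808), and depth one of -0.289 (permutation p 0.371). These belong to a family of 14 relations, over which p was adjusted.

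Tissue-selective genes held a larger share of most, but not all, sets of extreme loadings than of all tested genes. The genes with extreme loadings had low levels, with medians of 2.17 to 5.82 CPM by set against 24 CPM over all. Among the 500 with the highest loadings on the first component, 497 had a value in each tissue, and 21.5% of them had a pineal median at least 2-fold above both other tissues, against 9% of all tested genes. Of the 498 such genes with the lowest loadings, 25.7% had a hypothalamic median at least 2-fold above the pineal gland and the pars tuberalis, against 9.21% of all. Other tissues were also present at both ends. The lowest loadings held 14.7% pineal and 16.9% pars tuberalis genes (9% and 7.81% of all). The highest held 12.7% hypothalamic and 7.65% pars tuberalis genes. On the second component the highest loadings belonged to hypothalamic genes in 37.9% of 496 and the lowest to pineal genes in 22.8% of 492. The highest score on that axis, 45.6, was that of ram 10. Its highest loadings held 8.06% pineal and its lowest 7.11% hypothalamic genes, under the 9% and 9.21% of all tested genes. Pars tuberalis genes held 14.3% of the highest and 10.8% of the lowest. These shares were not computed without ram 10. These shares describe the components and carry no test.

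No gene passed the test for state. With an adjusted p (Benjamini-Hochberg) under 0.05 as the threshold, 0 (0%) of the 15786 genes tested were called by edgeR's quasi-likelihood test on the 12 libraries. An unadjusted p below 0.05 occurred in 266 genes (1.69%), with 106 (0.671%) higher and 160 (1.01%) lower in active rams. DESeq2 on the same 12 libraries called 0, with 335 (2.12%) at an unadjusted p below 0.05. Voom called 0, with 264 (1.67%), and edgeR on all 36 libraries called 0 of 16773, with 326 (1.94%). Evenly spread p values, as without any state effect, would put a share of 0.05 of the genes below that threshold. All of these fits stayed under that share, so the counts are no sign of a state effect. The reason for the low share was not tested. The groups did not overlap for 8 genes (0.0507%), 5 higher (0.0317%) and 3 lower (0.019%) in active rams. The 5 had fitted differences of 0.256 to 1.07 on the log2 scale and mean levels from 0.856 to 484 CPM. The 3 differed by 0.584 to 0.965 and averaged 0.556 to 5.93 CPM.

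The absence of calls came with narrow intervals for well-expressed genes. The typical fitted difference was small, with a median of 0.0964 on the log2 scale regardless of sign. For 13342 genes (84.5%) the whole 95% interval of the state difference lay inside 2-fold in either direction, and for 9575 (60.7%) inside 1.5-fold. Precision followed level. Among the 3856 genes at 64 CPM and above, 98.1% had an interval inside 2-fold and 88.2% inside 1.5-fold, and the interval reached a median of 1.2-fold to each side of the estimate. Among the 1466 genes under 1 CPM these shares were 36.2% and 1.77%, with a median reach of 1.8-fold. For most genes under 1 CPM a 2-fold difference in 1 direction or the other lay within the interval, so nothing is said of their equality.

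**Figure D3:**
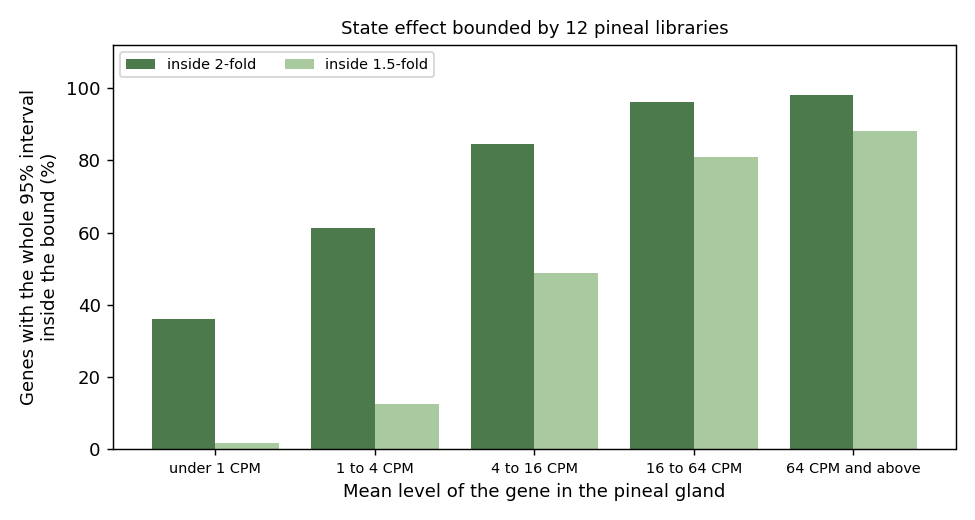
Percent of tested genes whose whole 95% interval of the active minus inactive difference lies inside 2-fold or 1.5-fold, by mean level in the pineal gland. The share inside 2-fold runs from 36.2% under 1 CPM to 98.1% at 64 CPM and above.

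The 100 most abundant IDs averaged 841.9 to 5659 CPM, and their fitted differences ran from -0.47 to 0.38 on the log2 scale with a median of -0.02. None of the 100 had an unadjusted p below 0.05 in edgeR's test, 96 had an interval inside 2-fold and 76 inside 1.5-fold. Of the 1000 most abundant, 7 had an unadjusted p below 0.05, where 1.69% of all tested genes did, and 974 had an interval inside 2-fold. Fitted differences of at least 1.5-fold occurred in 6 of these 1000.

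Genes restricted to the pineal gland were tested in the same fit. All 69 pineal-restricted genes passed the filter, at a median of 237 CPM. Of these, 46 had a higher and 23 a lower fitted value in active rams, with a median of 0.041 on the log2 scale, against a median of 0.0012 over all tested genes. The split changed with single rams: without ram 10 it was 34 higher and 35 lower (median -0.0088), and without ram 1 it was 33 higher and 36 lower (median -0.0057). With all rams, their differences ran from -0.57 to 0.51. None of the 69 had an unadjusted p below 0.05 in edgeR's test, against 1.69% of all tested genes, and up to 2 did with a ram left out. Of the 69, 54 had an interval inside 2-fold, against 13342 of the 15786 tested. Among genes at 64 CPM and above, where the median level of the 69 lies, it was 3781 of 3856. The state difference was thus bounded less often for pineal-restricted genes than for genes at such levels. Because these genes were selected for their level in all 12 pineal libraries together, the selection used no state.

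Most of the large fitted differences were lower in active rams, but not without ram 10. Differences of at least 2-fold were fitted for 204 genes, 56 higher and 148 lower in active rams, with 0 called. For 74 of the 204 (36.3%) ram 10 was the library farthest from the median of the 12, although it held that place for 11.5% of all tested genes. Fitted without ram 10, 110 genes were at least 2-fold higher and 94 lower in active rams. With any other single ram left out, the counts ran from 60 to 80 higher and from 169 to 205 lower. With the level of hypothalamus-restricted genes as a covariate and all 12 rams in the fit, 55 were higher and 89 lower.

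**Figure D4:**
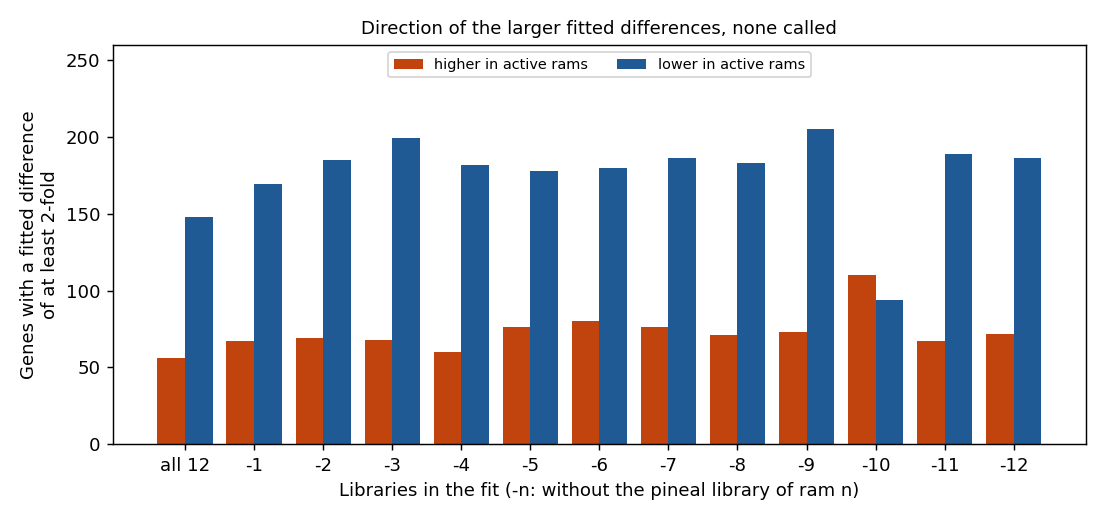
Number of genes with a fitted difference of at least 2-fold, higher (red) or lower (blue) in active rams, in the fit of all 12 pineal libraries and without each ram. None of these fits called a gene, and the excess of lower genes, 148 against 56, turns to 94 against 110 without ram 10.

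Hypothalamic genes showed the same turn. Of the 35 hypothalamus-restricted genes 26 passed the filter, and all 26 had a lower fitted value in active rams, with a median of -0.93 and 1 at an unadjusted p below 0.05. Without ram 10, 20 of 26 that passed had a higher fitted value and 6 a lower one, with a median of 0.62. Of these 26, 6 had an unadjusted p below 0.05 by edgeR's test, with 0 called. Over all tested genes the share at such a p was 1.69% with all rams and 1.48% without ram 10. Which genes pass depends on the libraries where they are high, so these counts are no support for a difference. Of the 43 pars tuberalis-restricted genes 13 passed, 5 higher and 8 lower (median -0.3). Without ram 10 there were 8 higher and 6 lower (median 0.088), and without ram 8 there were 8 higher and 7 lower (median 0.051).

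Ram 10 also held most of the genes that were far from all others in a single ram. A gene was counted where 1 ram lay at least 4-fold from the median of the other 11 and none of those 11 did. Ram 10 had 183 such genes above the rest, and the other rams had 5 to 22. Of the 183, 95 (51.9%) had a median at least 10-fold higher in the hypothalamus than in the pineal gland, and 44 (24%) had one at least 10-fold higher in the pars tuberalis. A gene can be in both counts. This condition is looser than that of the restricted genes, for which ram 10 lay within the range of the others in the pars tuberalis list. Over the 15748 tested genes with a value in each tissue, these shares were 2.32% and 1.92%. Below the rest, ram 6 had 37 such genes, ram 12 had 25 and ram 10 had 8. The part of other tissue in these differences was not tested.

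Spread between rams was of similar size in both states. The median SD of log2 CPM was 0.314 over active and 0.285 over inactive rams, and 43.1% of genes had the larger SD in inactive rams. An SD of at least 1 occurred in 866 genes among active and 889 among inactive rams, 477 of them in both.

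The 4 IDs with the lowest p in each direction, 2 lower and 2 higher in active rams, are given next. None was called. Their function is not known here.

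ENSOARG00020006027 had the lowest p of all genes and was lower in active rams. It ran from 3.19 to 4.98 CPM in active rams (median 4.03) and from 5.37 to 12.4 CPM in inactive rams (median 6.51). Every inactive ram lay above every active ram, with rams 8 and 9 highest. The log2 difference was -0.965 (SE 0.234, 95% interval -1.47 to -0.46, unadjusted p 0.00115 and adjusted p 1 by edgeR's quasi-likelihood test). Each library held between 111 and 475 counts. It ran from -1.05 to -0.79 with a ram left out, so that no single ram set its direction. In the hypothalamus of the same rams its groups were also apart, with 9.21 to 27.9 CPM in the active group and 36.2 to 118 CPM in the inactive group. In the pars tuberalis they overlapped, at 6.63 to 16.4 and 8.1 to 15.2 CPM. In the edgeR fit of all 36 libraries its log2 difference was -1.49 in the hypothalamus (SE 0.277, adjusted p 0.03) and -0.227 in the pars tuberalis (SE 0.275, adjusted p 0.967). The difference between the pineal state effect and the mean of the other tissues was -0.103 (SE 0.336, unadjusted p 0.761 and adjusted p 1 by edgeR). The tissues come from the same 12 rams and are not independent evidence.

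ENSOARG00020014030 was a low transcript, with 9 to 134 counts per pineal library. It ran from 0.214 to 1.07 CPM in active rams (median 0.619) and from 0.914 to 5.26 CPM in inactive rams (median 1.53). Active ram 1 reached above inactive ram 11, so the groups overlapped, and inactive rams 9 and 8 were highest. Its log2 difference was -1.9 (SE 0.475, 95% interval -2.92 to -0.87, unadjusted p 0.00147 and adjusted p 1 by edgeR). Without ram 9 it was -1.47 and without ram 1 it was -2.16. In the hypothalamus the range was 0 to 0.681 CPM for active rams and 0.174 to 0.901 CPM for inactive rams, and in the pars tuberalis at 0.261 to 1.07 and 0.829 to 1.5 CPM. The pineal effect minus that of the other tissues was -1.51 (SE 0.591, unadjusted p 0.0152 and adjusted p 1 by edgeR).

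ENSOARG00020015585 had the widest range of the 4 IDs. It ran from 0.151 CPM in ram 2 to 458 CPM in ram 4 among active rams (median 9.43), with 37.9 CPM in ram 6 and 15.7 CPM in ram 5. Inactive rams held 0.0401 to 2.19 CPM (median 0.477), the highest in ram 10. The groups overlapped, since active rams 2 and 3 lay within the inactive range. Its log2 difference was 6.95 (SE 1.69, unadjusted p 0.0012 and adjusted p 1 by edgeR) and 4.07 without ram 4. DESeq2 on the 12 libraries set no p for it. Its level was far higher in the pars tuberalis, between 418 and 4040 CPM for active rams and between 397 and 3480 CPM for inactive rams. In the hypothalamus ram 4 was again highest at 697 CPM, followed by ram 6 at 401 CPM. Rams 2, 7 and 11 were the lowest 3 in both the hypothalamus, at 0.0676 to 0.0839 CPM, and the pineal gland, at 0.0401 to 0.163 CPM. These levels rest on 2 to 3 counts in the hypothalamus and 2 to 5 in the pineal gland, where counts per library ran from 2 to 27629. Summed over the pars tuberalis-restricted genes, rams 4 and 6 were also the highest of the pineal libraries, at 66.6 and 60 CPM. The sum was 17.3 CPM in ram 5 and 14.9 to 49 CPM in the other 9 rams. The 49 CPM was that of inactive ram 8, where this ID stood at only 0.809 CPM. The part of pars tuberalis RNA in the level of this ID was not tested. In the edgeR fit of all 36 libraries its log2 difference was 3.97 in the hypothalamus (SE 1.41, adjusted p 0.32), the same direction as in the pineal gland. In the pars tuberalis it was 0.0204 (SE 1.24). The pineal effect minus the mean of those 2 tissues was 4.97 (SE 1.72, unadjusted p 0.00684 and adjusted p 1 by edgeR).

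ENSOARG00020010578 was higher in active rams. It ran from 0.477 to 2.23 CPM in active rams (median 0.836) and from 0.238 to 0.51 CPM in inactive rams (median 0.44), on 9 to 63 counts per library. Active ram 3 lay within the inactive range, and ram 2 was highest. The log2 difference was 1.28 (SE 0.358, unadjusted p 0.00331 and adjusted p 1 by edgeR) and 0.91 without ram 2. Its mean was higher in active rams in the hypothalamus too, at 2.22 ± 1.07 against 1.2 ± 0.489 CPM, and in the pars tuberalis, at 0.864 ± 0.455 against 0.335 ± 0.14 CPM (SD, n = 6 each). Rams 1 and 2 were the 2 highest rams in both of those tissues. The pineal effect minus that of the others was 0.16 (SE 0.465, unadjusted p 0.733 and adjusted p 1 by edgeR).

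**Figure D5:**
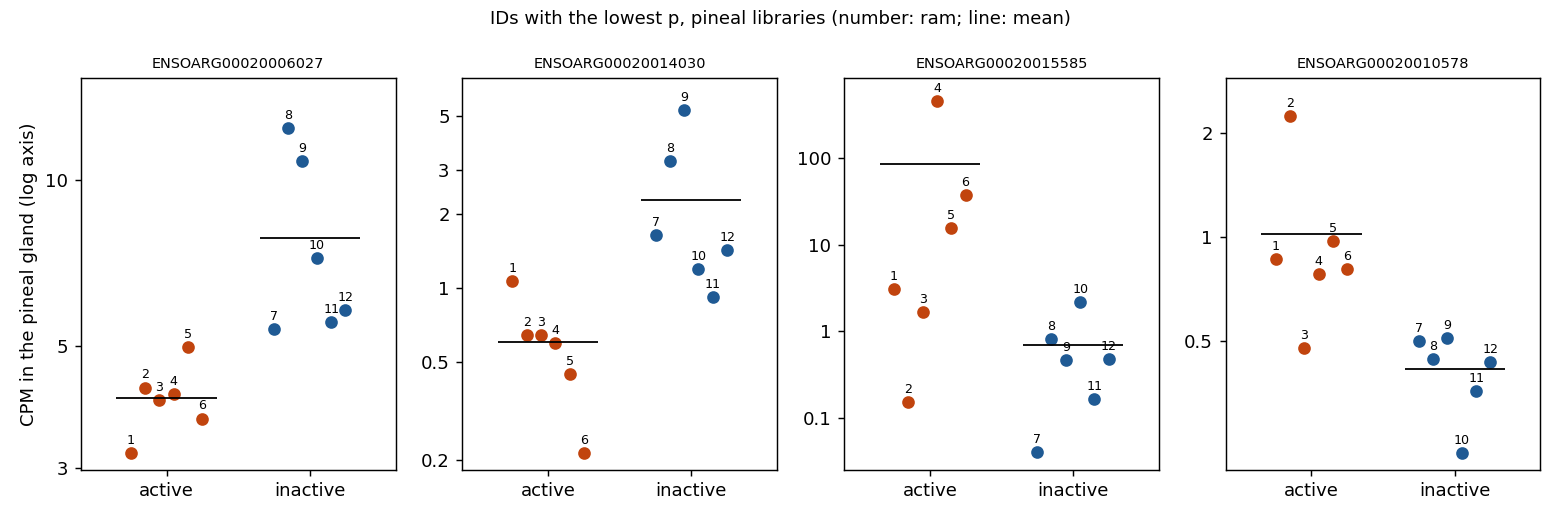
CPM of the 4 IDs in each pineal library (log axis), numbered by ram, with the mean of each group as a line. The groups are apart for the first ID, and ram 4 at 458 CPM and ram 2 at 2.23 CPM stand above the other active rams for the last 2.

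The state effect in the pineal gland was set against the mean state effect in the hypothalamus and pars tuberalis in the fit of all 36 libraries. Of 16773 genes edgeR's quasi-likelihood test called 0 (0%), with 306 (1.82%) at an unadjusted p below 0.05, and DESeq2 called 2. No difference between the pineal gland and the other tissues in their response to state passed edgeR's test.

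DESeq2 on all 36 libraries called 20 genes (0.119%) for state in the pineal gland, 2 higher and 18 lower in active rams, where DESeq2 on the pineal libraries alone called 0. Of these 20, 19 had a higher median in the hypothalamus or the pars tuberalis than in the pineal gland. The filter on the 12 pineal libraries kept 11 of the 20. In the fits of those 12 libraries, 11 of the 20 had an unadjusted p below 0.05 by edgeR and 4 by DESeq2. All of these fits use the same pineal counts and are not separate support. Ram 10 was farthest from the median for 7 of those 11 and ram 4 for 1. The count was 5 without the pineal library of ram 10 and 16 without that of ram 4. The lowest adjusted p by DESeq2 was 4.22e-22 with all libraries, 9.82e-19 without that of ram 10 and 6e-19 without that of ram 4. Some calls thus remained without either library. Whether these lowest values belong to the same ID is not given here. ENSOARG00020014030 and ENSOARG00020015585 were among the 20, at adjusted p 0.0241 and 8.21e-05 by DESeq2. Neither was called without the pineal library of ram 4, where the adjusted p was 0.0697 and 0.268. Without that of ram 10 it was 0.0412 and 9.29e-06.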

How the data were processed

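The deposited values are unnormalised whole-number counts for each gene and library. The submitters' processing notes list FastQC, STAR 2.7.8a, HTSeq and edgeR, with no roles. Per the labels' protocols, libraries were stranded, made from messenger RNA and read from both ends. The sources used here do not give the genome build, annotation, strand setting or use of the molecular identifiers, so near-identical or overlapping genes are uncertain. The labels name no batch.

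The members and lists were chosen with earlier results of these data known. The 12 pineal libraries were fitted alone in R 4.3.3 with edgeR 4.0.16: default filter (minimum count 10, 2 groups), TMM scaling, robust quasi-likelihood, active minus inactive, Benjamini-Hochberg adjustment over 15786 genes. CPM values are TMM-scaled, and log2 CPM used a prior count of 1. SE is the absolute log2 difference over the square root of F. Hypothalamus and pars tuberalis values and differences between tissues come from 1 edgeR fit of 36 libraries (16773 genes). DESeq2 1.42.0 and limma 3.58.1 (voom) were alternatives. Values per library were tested over all 924 splits of the rams (smallest two-sided p 0.00216), and correlations with 100000 permutations. Named IDs are the 2 with the lowest p in each direction. Scripts were tested on simulated data.

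Libraries of a state come from different rams. Their lowest chi-square per degree of freedom was 50.8 over 30 pairs, so none repeats another. The labels tie the 3 libraries of a ram by its number. Deviations from the group mean over 12351 genes correlated between pineal gland and hypothalamus of the same ram at a median of 0.13 (-0.14 to 0.54), and between pineal gland and pars tuberalis at 0.21 (-0.33 to 0.47). With other rams of the same state the medians were -0.00039 and -0.041. The pair from the same ram was the highest for 5 rams with the hypothalamus and for 7 with the pars tuberalis. The pairing by number was thus only partly visible in the counts.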

Additional observations from a re-analysis of the deposited data

Results flagged for a closer look

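Over 28 groups of 6 rams, 4 values lay far from the rest of their group. For normally distributed values chance gives about 1 in 20 such groups. These 4 values were taken on the unlogged scale, and the IDs were chosen for their low p, so that rate does not apply here. Hypothalamus-restricted genes stood at 8.73% in inactive ram 10, where the next inactive ram had 0.737%. ENSOARG00020015585 stood at 458 CPM in active ram 4, where the next active ram had 37.9 CPM, and at 2.19 CPM in inactive ram 10, where the next inactive ram had 0.809 CPM. ENSOARG00020010578 stood at 2.23 CPM in active ram 2, where the next active ram had 0.972 CPM.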

How the results depend on the processing

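The count of 0 genes called for state was 0 in 24 of 27 alternatives, which were DESeq2, voom, other scaling, filters and spread, thinning to 25242937 counts per library, covariates, the 36-library edgeR fit and each ram left out. The other 3 were DESeq2 on 36 libraries (20 genes) and the same without the pineal library of ram 4 (16) or ram 10 (5). Those 3, and the fit with the first component as a covariate (0 genes), were chosen after seeing the data. With the animal as a replicate block in voom on 36 libraries it was 0, with 292 at an unadjusted p below 0.05. The 266 genes at an unadjusted p below 0.05 became 563 without a filter and 552 without ram 6 (312 higher, 240 lower), and ran from 187 to 382 otherwise. The cause was not tested. Intervals inside 2-fold covered 12789 to 13347 genes over 16 alternatives.

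The count of 0 for the difference between tissues held in 17 of 18 alternatives, among them the animal as a fixed replicate block (0). DESeq2 called 2. Its 306 genes at an unadjusted p below 0.05 became 684 against the hypothalamus alone and 485 without ram 8.

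Values per library never passed, and small differences changed sign. IDs detected differed by 95 and by -9.67 after thinning. With a ram left out, differences ran from -8.07 to 194.5 for IDs detected, from -0.065 to 0.187 for the percent in the 10 leading IDs, from -0.380 to 0.248 for the 100 leading IDs, from -11.2 to 9.4 and from -20.1 to 0.421 for the component scores, from -0.0205 to 0.029 for the SD of deviations, and from -0.358 to 0.575 and from -0.022 to 0.0663 for hypothalamus- and pineal-restricted genes on the log2 scale. The 4 IDs kept their direction. Of the genes under 1 CPM, 36.2% had an interval inside 2-fold.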
